A study of Mus musculus with 12 samples.

Results

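Integrins are the cell surface receptors that fasten a cell to its matrix, and the genes of 10 of their subunits are followed here across im-TEC cells, which are tubular epithelial cells of the mouse kidney, immortalized so that growth can be switched by temperature. The members were chosen by name and matched through their mouse Ensembl identifiers, which gave 10 of 55487 genes in the count table. They are 6 α subunit genes, *Itga1* (ENSMUSG00000042284), *Itga2* (ENSMUSG00000015533), *Itga3* (ENSMUSG00000001507), *Itga5* (ENSMUSG00000000555), *Itga6* (ENSMUSG00000027111) and *Itgav* (ENSMUSG00000027087), and 4 β subunit genes, *Itgb1* (ENSMUSG00000025809), *Itgb3* (ENSMUSG00000020689), *Itgb5* (ENSMUSG00000022817) and *Itgb6* (ENSMUSG00000026971). All 10 had counts, and 9 passed the filter on low counts and were tested, *Itga2* being the exception. The study asked how TGFβ and an inhibitor of NNMT, nicotinamide N-methyltransferase, change these cells, with 12 libraries in 4 groups of 3. The control group received neither agent, the NNMTi group received the inhibitor 5-amino-1-methylquinolinium at 50 µM, the TGFβ group received TGFβ at 10 ng/mL, and the combined group received both, each for 48 h. All groups share the line's SV40 large T antigen, whose activity had been lowered by 7 days at 37 °C with no interferon-gamma after maintenance at 33 °C with 10 ng/mL of it. Nothing in the labels says whether the line is 1 clone or whether the replicates were separate cultures, so a p-value here weighs differences only against the spread of the libraries, which may be technical.

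Each integrin is a pair of 1 α and 1 β chain, and the pair decides the ligand. The α1 and α2 chains join β1 to bind collagens, α3 and α6 bind laminins of the basement membrane, and α5 with β1 is the main fibronectin receptor. The αv chain pairs with several β chains, among them β3, β5 and β6, and these receptors read the RGD motif (arginine, glycine, aspartate) in fibronectin, vitronectin and the latency peptide of TGFβ. In kidney tubules, αvβ6 is known for releasing TGFβ from that peptide, and α3β1 for attachment to the tubular basement membrane.

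Promoter windows of 300 bases, 250 before to 50 after the start of transcription, were read from RefSeq (GRCm38.p6) and matched 8 of the 10 members, some with another start, giving 10 windows. The windows shown belong to *Itga1*, which fell most with TGFβ, *Itgb1*, the most abundant member, *Itgb5*, whose response to the inhibitor differed between cells with and without TGFβ, and *Itgb6*, the lowest member of the combined group among those tested. They lie at chr13:115101915-115102214 on the minus strand, chr8:128685404-128685703 on the plus strand, chr16:33829415-33829714 on the plus strand and chr2:60722554-60722853 on the minus strand. Capitals mark CAGAC or its reverse complement GTCTG, the short core bound by SMAD proteins, which carry the TGFβ signal to DNA.
Itga1: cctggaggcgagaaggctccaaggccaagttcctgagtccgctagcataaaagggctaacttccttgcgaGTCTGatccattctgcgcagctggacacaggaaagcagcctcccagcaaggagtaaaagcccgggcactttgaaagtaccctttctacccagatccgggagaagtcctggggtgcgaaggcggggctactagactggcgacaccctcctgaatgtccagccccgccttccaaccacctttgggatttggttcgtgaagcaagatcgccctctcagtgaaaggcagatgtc
Itgb1: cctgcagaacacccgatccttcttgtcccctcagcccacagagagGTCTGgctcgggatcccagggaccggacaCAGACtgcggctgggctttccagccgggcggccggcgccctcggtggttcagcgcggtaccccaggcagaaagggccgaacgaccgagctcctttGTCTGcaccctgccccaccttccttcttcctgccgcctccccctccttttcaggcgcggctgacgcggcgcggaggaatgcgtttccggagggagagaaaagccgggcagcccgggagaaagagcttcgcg
Itgb5: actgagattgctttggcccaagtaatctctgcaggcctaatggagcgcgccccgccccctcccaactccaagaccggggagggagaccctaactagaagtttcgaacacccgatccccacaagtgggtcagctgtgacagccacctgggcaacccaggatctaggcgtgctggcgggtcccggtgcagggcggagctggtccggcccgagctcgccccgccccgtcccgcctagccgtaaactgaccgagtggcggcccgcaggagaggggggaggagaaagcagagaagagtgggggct
Itgb6: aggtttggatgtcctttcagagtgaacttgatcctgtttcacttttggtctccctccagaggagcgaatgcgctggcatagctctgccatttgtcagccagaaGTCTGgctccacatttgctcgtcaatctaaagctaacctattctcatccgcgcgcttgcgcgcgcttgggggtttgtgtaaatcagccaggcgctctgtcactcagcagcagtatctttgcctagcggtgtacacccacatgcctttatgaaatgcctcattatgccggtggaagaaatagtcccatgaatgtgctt
The search read both strands for CAGAC and for TGANTCA, the AP-1 motif, and no window held both. CAGAC or GTCTG stood in 6 of the 10 windows, 1 each of *Itga1*, *Itga2*, *Itga3*, *Itga5*, *Itgb1* and *Itgb6*, and in 49.6% of 32851 mouse promoter windows of the same length. TGANTCA stood in 1 window, a start of *Itga3*, against 7.81% of all windows. The windows of *Itgav* and *Itgb5* held neither motif. Nor did the window of another start of *Itgb6*, at chr2:60673644-60673943, which is not shown. The letters were thus present at genes that rose and at genes that fell, and a match is a description of the sequence only.

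Libraries held 2584117 to 11866903 counts in genes, and all but TGFβ replicate 3, the shallowest, held at least 7838352. Levels are CPM, gene counts scaled to a common library total after TMM. The libraries read only the 3′ end of each transcript, so counts do not scale with transcript length. Whether different genes were captured equally well was not tested, so orders, shares and ratios across genes describe counts only. The spread between replicates, as edgeR's biological coefficient of variation, was 0.227 in the TGFβ group and 0.0657 to 0.112 in the others. Which TGFβ library stood apart differed by gene. In TGFβ replicates 1, 2 and 3, *Ccn2* stood at 4088, 946 and 4262 CPM, and *Itgav* at 85.7, 112 and 55.5 CPM. As a check of the labels, *Acta2*, smooth muscle actin and a known TGFβ target, stood at 43.6 ± 1.00 CPM (SD, n = 3) in controls and 873 ± 129 CPM with TGFβ. Of 22 tubular markers, 18 had counts. Their summed level was 1885 to 2045 CPM in controls, 706 to 1100 CPM with TGFβ and 686 to 719 CPM in the combined group. The water channel *Aqp1* led them in controls at 1012.5 ± 46.9 CPM and stood at 25.2 ± 8.55 CPM with TGFβ. The keratin *Krt8* went the other way, from 62.6 ± 0.486 to 288 ± 99.6 CPM, and led the list in both groups with TGFβ, while the segment markers *Slc34a1* and *Umod* and the adhesion marker *Epcam* were at 0 in every group. Of 12 fibroblast markers, 7 had counts. Their sum was 38.7 to 45.2 CPM in controls and 154 to 190 CPM with TGFβ, led there by *Col1a1* at 165 ± 19.3 CPM. *Islr*, which led them in controls at 34.6 ± 1.65 CPM, stood at 1.73 ± 0.432 CPM with TGFβ, and the defining *Pdgfra*, *Lum* and *Thy1* were at 0 in every group. Summed endothelial markers stayed between 1.62 and 8.26 CPM over all libraries, with *Cdh5* and *Kdr* at 0, and summed immune and platelet markers between 29.2 and 86.2 CPM. *Csf1r* led the immune and platelet list in every group, at 68.6 ± 2.63 CPM in controls. The group means of *Ptprc* reached at most 0.377 CPM, and *Adgre1* was at 0 in every group. Podocyte markers summed to 514 to 555 CPM in controls and 677 to 811 CPM with TGFβ, with *Nphs1* at 0. The part of these markers in the integrin results was not tested, and in bulk RNA fewer cells of a type and less RNA per cell cannot be told apart.

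With TGFβ, 4 members rose and 3 fell. The risers were *Itga5*, *Itgb1*, *Itgb3* and *Itgb5*, and those that fell were *Itga1*, *Itga3* and *Itgb6*. *Itga6* and *Itgav* did not pass the test. Passing means an adjusted p below 0.05 in edgeR's quasi-likelihood test, with Benjamini-Hochberg adjustment over 13581 genes. Among all genes tested, 36.5% passed in this comparison, 19.4% higher and 17.1% lower, against 7 of the 9 members. The members and the gene lists below were chosen with earlier results of these data known, so such contrasts describe and do not test. The median change was 0.18 on the log2 scale over the tested members and 0.017 over all genes. Scaling by library size alone moved the split of all calls from 53.1% higher to 43.3% higher and left 4 members higher and 3 lower.

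**Figure D1:**
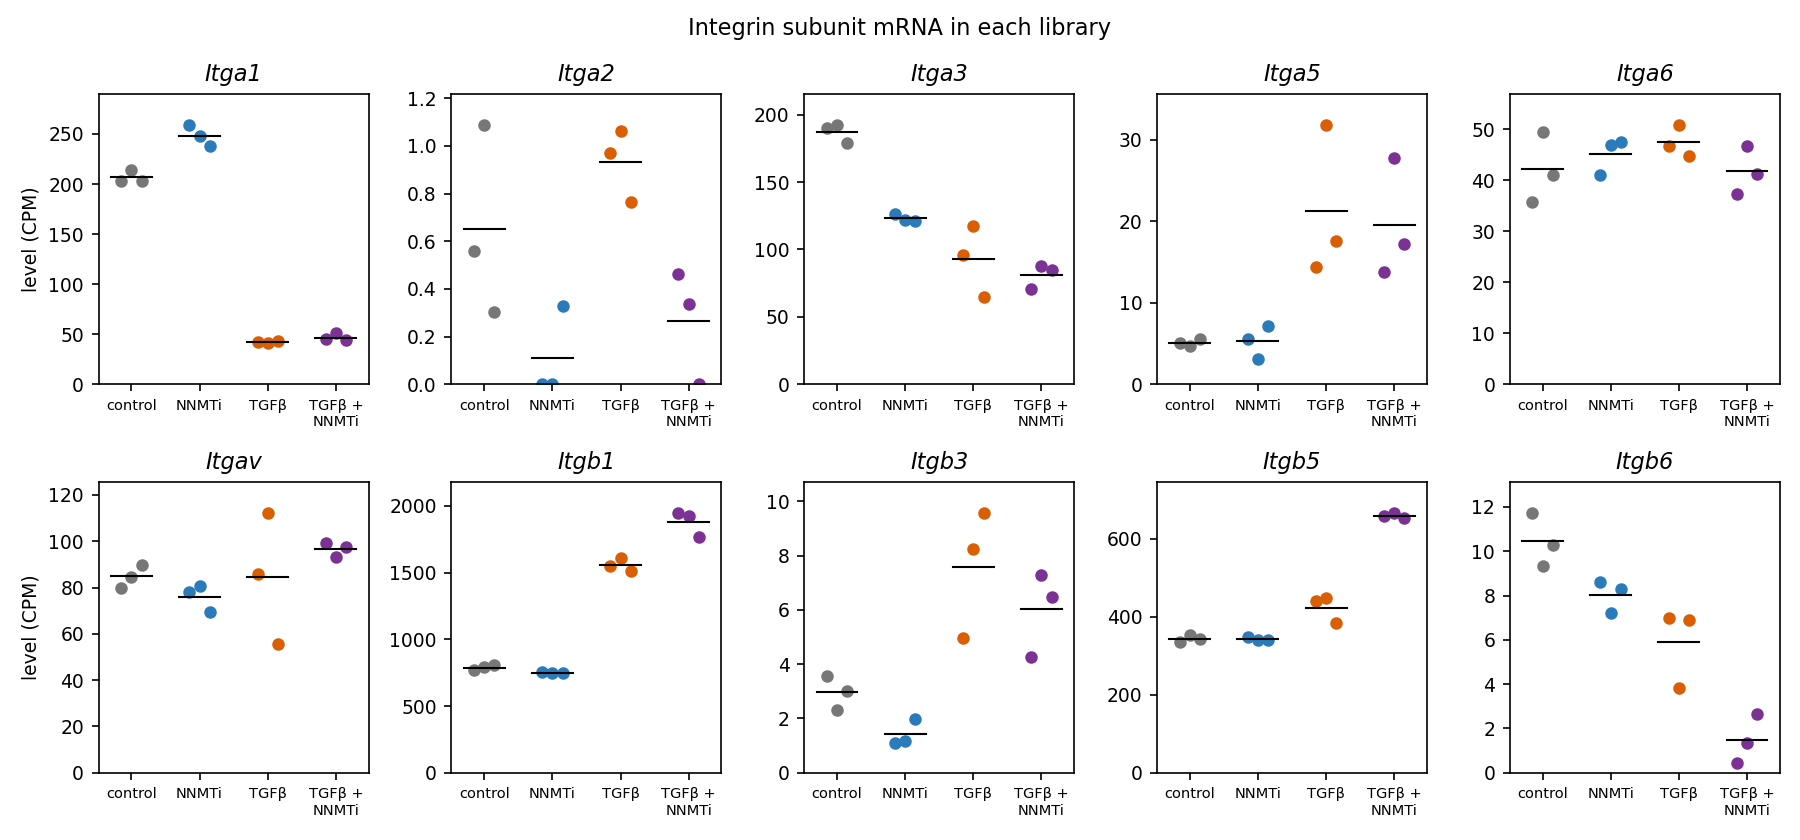
Level of each of the 10 integrin subunit genes in CPM (vertical axis, linear from 0, own scale per gene) in every library of the 4 groups, with a line at the group mean. *Itga1* falls from 203 to 214 CPM in controls to 41.3 to 43.6 CPM with TGFβ, and *Itgb5* is highest in the combined group, at 652 to 665 CPM.

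The collagen receptor gene *Itga1* had the largest change among members with TGFβ. It stood at 203, 214 and 203 CPM in the controls, 259, 248 and 238 CPM with NNMTi and 42.4, 41.3 and 43.6 CPM with TGFβ. The libraries with both agents stood at 45.1, 51.0 and 43.8 CPM. Every library with TGFβ lay far below every library without it, and the TGFβ libraries differed little from one another. The fall was 4.88-fold, a log2 change of -2.29 ± 0.10 (SE; edgeR adjusted p = 4.52e-12). *Itga1* overlaps the protein-coding gene *Pelo* on the same strand, which held 712 counts over all libraries, and the antisense *Gm10734*, with 214. *Itga2*, for the second collagen-binding chain, was near absent, with 5, 9 and 3 counts in controls, 0, 0 and 3 with NNMTi, 9, 12 and 2 with TGFβ, and 4, 3 and 0 when both agents were given. These counts were below the filter and *Itga2* was not tested; at this depth 3 counts are 0.253 to 1.16 CPM.

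The laminin receptor genes did not change alike. *Itga3* stood at 190, 193 and 179 CPM in controls, 126, 121 and 121 CPM with NNMTi and 95.8, 118 and 65.0 CPM with TGFβ. With both agents the level was 70.5, 87.4 and 85.0 CPM. The controls were the highest libraries, and the TGFβ libraries, from 65.0 to 118 CPM, spread most while staying below all libraries without TGFβ. With TGFβ it fell by 0.99 ± 0.15 on the log2 scale (edgeR adjusted p = 4.10e-05). *Itga6* stood at 35.8, 49.5 and 41.1 CPM in controls, 41.0, 47.0 and 47.6 CPM with NNMTi and 46.6, 50.9 and 44.8 CPM with TGFβ. The libraries with both agents stood at 37.4, 46.7 and 41.3 CPM. All 4 groups overlapped. Its log2 change with TGFβ was 0.18, with a 95% interval of -0.09 to 0.44 (edgeR adjusted p = 0.324).

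*Itga5*, the fibronectin receptor chain, was low in controls, at 5.02, 4.72 and 5.54 CPM. It stood at 5.62, 3.08 and 7.10 CPM with NNMTi and 14.4, 31.9 and 17.6 CPM with TGFβ. With both agents the level was 13.8, 27.8 and 17.2 CPM. Groups with TGFβ did not overlap groups without it, and replicate 2 was the highest in both groups with TGFβ. The rise with TGFβ was 4.26-fold, a log2 change of 2.09 ± 0.36 (edgeR adjusted p = 0.000354). Its partner *Itgb1*, the β chain shared by the collagen, laminin and fibronectin receptors, was the most abundant member in every group. It stood at 766, 790.2 and 807 CPM in controls, 755, 746 and 744 CPM with NNMTi and 1548, 1609.6 and 1512 CPM with TGFβ. The libraries with both agents stood at 1945, 1924 and 1769.8 CPM. The 4 groups did not overlap one another. With TGFβ *Itgb1* rose 1.98-fold, or 0.98 ± 0.08 on the log2 scale (edgeR adjusted p = 3.94e-08).

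*Itgav*, the shared α chain of the RGD receptors, did not pass the test in any of the 6 comparisons. It stood at 79.9, 84.7 and 89.9 CPM in controls, 77.8, 80.4 and 69.4 CPM with NNMTi and 85.7, 112 and 55.5 CPM with TGFβ. With both agents the level was 99.3, 93.2 and 97.5 CPM. The TGFβ libraries held both the highest and the lowest value of all 12. Its change with TGFβ was 0.03 on the log2 scale, with a 95% interval of -0.30 to 0.35. Without TGFβ replicate 2 it was -0.22 (edgeR adjusted p = 0.175). In the combined group against NNMTi it was 0.35 (adjusted p = 0.11), and there it passed with no filter on low counts (0.0238) and when only these groups were fitted (0.00361).

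Of the 3 β partners of αv named above, the genes *Itgb3* and *Itgb5* rose with TGFβ and *Itgb6* fell. *Itgb3* was low, at 3.57, 2.30 and 3.02 CPM in controls, 1.10, 1.18 and 1.97 CPM with NNMTi and 4.95, 8.24 and 9.57 CPM with TGFβ. The libraries with both agents stood at 4.28, 7.30 and 6.47 CPM. Groups with TGFβ lay above groups without it, and controls lay above the NNMTi libraries. The rise with TGFβ was 1.30 ± 0.33 on the log2 scale (edgeR adjusted p = 0.0045), and it did not pass without TGFβ replicates 2 and 3 together (0.72, edgeR adjusted p = 0.236).

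*Itgb5*, the abundant partner, stood at 334, 353 and 344 CPM in controls, 349, 341 and 340.2 CPM with NNMTi and 440.2, 447 and 383 CPM with TGFβ. With both agents the level was 659, 665 and 652 CPM. The combined libraries lay above all others with little spread, and the TGFβ libraries stood between them and the rest. With TGFβ it rose by 0.30 ± 0.09 on the log2 scale, or 1.23-fold (edgeR adjusted p = 0.0104). That call was lost without control replicate 1 (adjusted p = 0.0514) and when only these groups were fitted (0.0696).

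*Itgb6*, the partner in the TGFβ-releasing αvβ6, stood at 11.7, 9.32 and 10.3 CPM in controls, 8.59, 7.22 and 8.30 CPM with NNMTi and 7.00, 3.81 and 6.89 CPM with TGFβ. The libraries with both agents stood at 0.463, 1.35 and 2.64 CPM. The order of groups ran from control down to the combined group with no overlap between neighbours, and the combined values rest on 4, 12 and 20 counts. With TGFβ it fell by 0.88 ± 0.32 on the log2 scale (edgeR adjusted p = 0.0407). This call was lost without control replicate 1 (0.124), 2 (0.0638) or 3 (0.0883), and, among TGFβ libraries, on leaving out replicate 2 (0.151) or both replicates 2 and 3 (0.26).

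**Figure D2:**
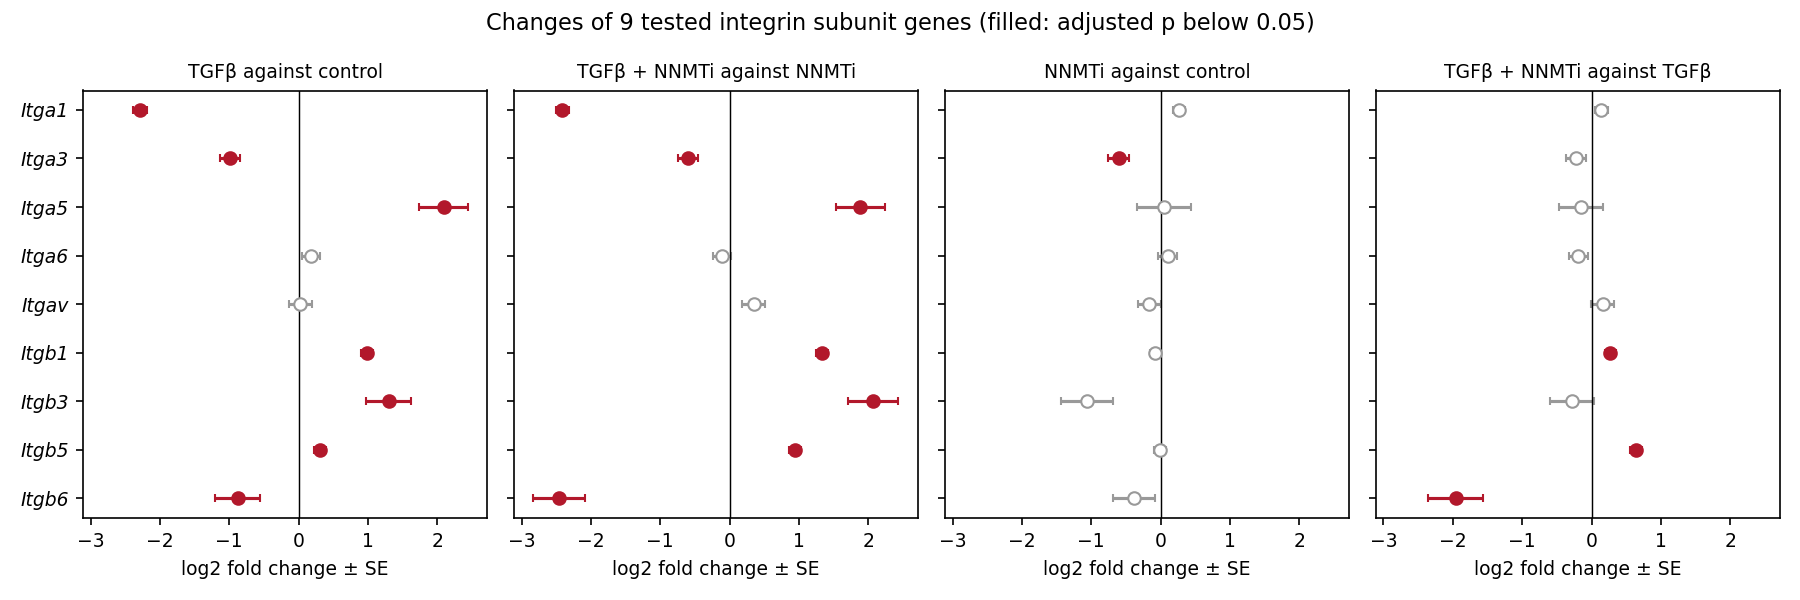
Log2 fold change ± SE (horizontal axis) of the 9 tested integrin subunit genes in 4 comparisons, 1 panel each; filled points passed an adjusted p below 0.05. Both panels of TGFβ show 7 filled points, against 1 for the inhibitor alone and 3 for the inhibitor added to TGFβ.

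The order of levels changed with TGFβ. In controls the members ran, from the highest mean, *Itgb1* (788 CPM), *Itgb5* (344), *Itga1* (207), *Itga3* (187), *Itgav* (84.8), *Itga6* (42.2), *Itgb6* (10.4), *Itga5* (5.10), *Itgb3* (2.96) and *Itga2* (0.650), and no neighbours overlapped. The NNMTi group kept that order, also with no overlap between neighbours. With TGFβ *Itga1* moved from the third place to the sixth, behind *Itgav* and *Itga6*, and *Itga5* passed *Itgb6*. There *Itga3* and *Itgav* overlapped, as did *Itgb3* and *Itgb6*. In the combined group *Itgav* (96.6 CPM) led the α chains, above *Itga3* (81.0), and *Itgb6* overlapped the near absent *Itga2*.

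Shares of the summed counts of the members show the same shift within each library. *Itga1* made up 39.2% ± 0.185 of the α counts in controls (SD, n = 3), 49.9% ± 0.884 with NNMTi, 15.2% ± 3.80 with TGFβ and 16.3% ± 0.821 in the combined group. *Itgav* held 16.1% ± 1.05 in controls and 28.7% ± 3.77 with TGFβ, although its own level did not pass the test. The share of *Itga5* was 0.969% in controls and 7.26% with TGFβ. Among β counts, *Itgb1* held 68.8% ± 0.477 in controls, 78.1% ± 0.880 with TGFβ and 73.8% ± 0.897 in the combined group. *Itgb5* held 30.0%, 21.2% and 25.9% in those groups, and *Itgb6* 0.913%, 0.298% and 0.0594%. Summed α counts came to 527 ± 17.6 CPM in controls and 289 ± 63.9 CPM with TGFβ, and summed β counts to 1145 ± 25.7 and 1993 ± 78.7 CPM. The ratio of β to α counts was therefore 2.18 ± 0.067 in controls, 2.21 ± 0.043 with NNMTi, 7.08 ± 1.29 with TGFβ and 8.93 ± 0.741 in the combined group. Over all 26 integrin subunit genes the ratios were 2.01, 2.01, 6.88 and 8.77. Libraries with and without TGFβ did not overlap in these ratios, and 3 against 3 libraries cannot give an exact two-sided permutation p below 0.1.

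**Figure D3:**
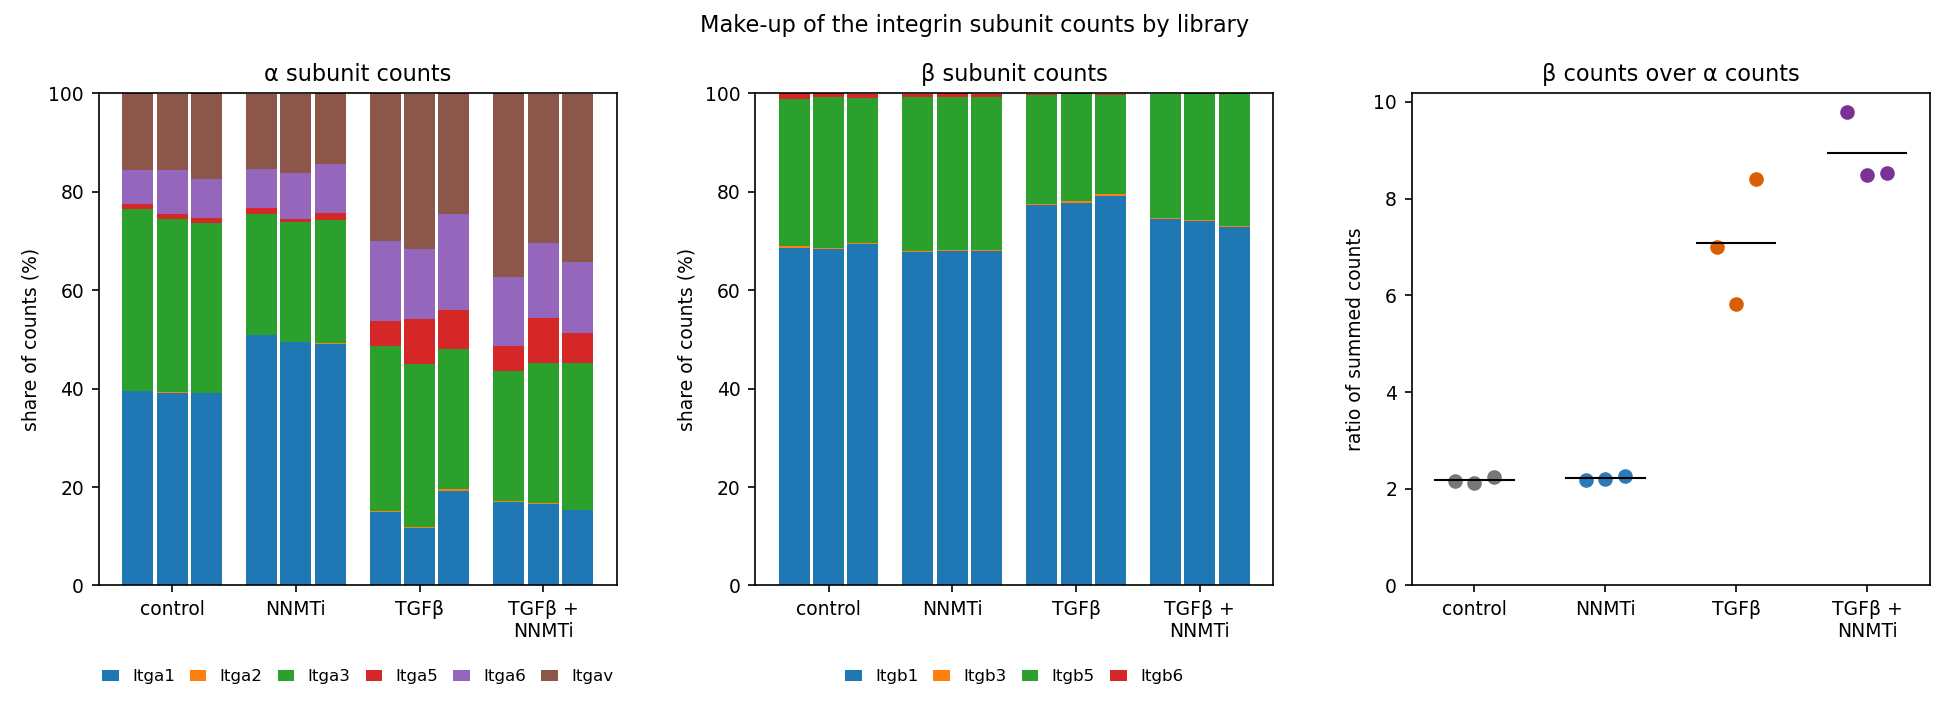
Left and middle, share of the summed α or β counts (%) taken by each member, 1 stacked bar per library; right, ratio of summed β to summed α counts per library with the group mean as a line. The *Itga1* part of the α bars shrinks from 39.2% in controls to 15.2% with TGFβ, and the ratio is 2.18 in controls and 7.08 with TGFβ.

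The inhibitor alone changed 1 member. *Itga3* fell by 0.61 ± 0.14 on the log2 scale, or 1.52-fold, with all 3 NNMTi libraries below all controls (edgeR adjusted p = 0.0134). Its call was lost without control replicate 1 (adjusted p = 0.0602) or 2 (0.0634). Of all genes, 8.27% passed in this comparison, 2.47% higher and 5.8% lower, against 1 of 9 members. *Itga1* (0.27 ± 0.09, edgeR adjusted p = 0.0792) and *Itgb3* (-1.06 ± 0.38, adjusted p = 0.097) did not pass, although neither overlapped the controls. *Itga1* did pass when only these groups were fitted (adjusted p = 0.00157). *Itgb5* was level, with a log2 change of -0.0018 and a 95% interval of -0.17 to 0.17. *Nnmt* itself, the target of the inhibitor, stood at 26.2 ± 3.01 CPM in controls and 19.2 ± 3.51 CPM with NNMTi. Library size scaling moved the split of all calls from 29.8% to 16.5% higher.

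Added to TGFβ, the inhibitor changed 3 members. *Itgb5* rose a further 1.55-fold (0.64 ± 0.09, edgeR adjusted p = 0.000123), and this call held in all 14 alternatives. *Itgb6* fell by 1.96 ± 0.40 on the log2 scale (edgeR adjusted p = 0.00426), 3.89-fold, with no overlap, and was lost when only these groups were fitted (0.0741). *Itgb1* rose by 0.27 ± 0.08 (edgeR adjusted p = 0.0444), close to the threshold, and that call was lost in 8 of 14 alternatives, with adjusted p up to 0.234. Among these were leaving out TGFβ replicate 1 (0.0679) or 3 (0.0615) and combined replicate 1 (0.0904) or 2 (0.0617). Among all genes 10.4% passed, 3.45% higher and 6.97% lower, against 3 of 9 members. The other members were *Itga1* (0.14), *Itga3* (-0.22), *Itga5* (-0.15), *Itga6* (-0.19), *Itgav* (0.16) and *Itgb3* (-0.28), all log2 changes that did not pass. Without TGFβ replicate 2 *Itgav* passed, at 0.40 (adjusted p = 0.0342), and without TGFβ replicate 3 *Itga3* did, at -0.40 (adjusted p = 0.0246).

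Whether the inhibitor acted differently with and without TGFβ was tested as the interaction. *Itgb5* was the member that passed, with a difference of 0.64 ± 0.12 on the log2 scale (edgeR adjusted p = 0.0129), level with the inhibitor alone and higher with it when TGFβ was present. The call was lost without control replicate 2 (0.068) or 3 (0.0517). In all genes 1.11% passed, 0.641% higher and 0.471% lower. The next members were *Itgb6* (-1.58 ± 0.50, edgeR adjusted p = 0.18) and *Itgb1* (0.35 ± 0.12, adjusted p = 0.226), which did not pass. DESeq2 called *Itgb1* (0.37, adjusted p = 0.00802), and without TGFβ replicate 2 *Itga3*, *Itgav*, *Itgb1* and *Itgb6* passed beside *Itgb5*, with adjusted p of 0.0311, 0.0483, 0.025 and 0.0247.

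In cells given the inhibitor, TGFβ gave the same split of 4 members up and 3 down. In the combined group against NNMTi, *Itga1* changed by -2.41 ± 0.10 on the log2 scale, *Itga3* by -0.60 ± 0.15 and *Itgb6* by -2.46 ± 0.38, while *Itga5* rose by 1.89 ± 0.35, *Itgb1* by 1.33 ± 0.08, *Itgb3* by 2.07 ± 0.36 and *Itgb5* by 0.94 ± 0.09, with edgeR adjusted p up to 0.00344. Of all genes 36.3% passed, 18% higher and 18.3% lower. Against control, the combined group had the values -2.15, -1.21, -2.84, 1.94, 1.25, 1.01 and 0.94 for these 7 members in the same order, and all 7 passed, against 31.8% of all genes, 15.3% higher and 16.5% lower. *Itgb3* (edgeR adjusted p = 0.0227) was lost there without control replicate 2 (0.0963) or 3 (0.0612) or combined replicate 2 (0.102) or 3 (0.0653). These comparisons share libraries with those above. Library size scaling moved all genes by -0.12 in the combined group against control and the split of calls from 48.1% to 32.6% higher, with the members' split unchanged at 4 and 3.

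The integrin family has 16 further subunit genes in the table, of which 12 had counts and 6 were tested. With TGFβ 0 of these 6 rose and 3 fell, beside 19.4% and 17.1% of all genes. *Itga9*, whose chain binds tenascin and other ligands with β1, stood at 40.6 ± 3.57 CPM in controls, 49.3 ± 4.54 CPM with NNMTi, 3.49 ± 0.154 CPM with TGFβ and 2.11 ± 0.140 CPM in the combined group. Its fall of 11.6-fold with TGFβ (-3.53 ± 0.16, edgeR adjusted p = 1.24e-11) was larger than that of any of the 9 tested members. The antisense *Gm2415* overlaps it and held 432 counts. *Itgb8*, another partner of αv that binds latent TGFβ, fell from 8.87 ± 1.06 to 4.33 ± 0.928 CPM (edgeR adjusted p = 0.00198). *Itga2b*, the platelet α chain, fell from 6.40 ± 0.298 to 3.01 ± 0.875 CPM (edgeR adjusted p = 0.006), a call lost without TGFβ replicates 2 and 3 together (0.165). In the combined group *Itga9* and *Itgb4*, the β partner of α6 in hemidesmosomes, were lower than with TGFβ alone (edgeR adjusted p = 0.0435 and 0.0396), and the calls were lost in 10 of 14 and 9 of 13 alternatives, with adjusted p up to 0.318 and 0.263. These 2 of 6 calls stand beside 6.97% of all genes that were lower in the combined group than with TGFβ, and DESeq2 called 0 of the 6. The other groups of *Itgb4* were too low to pass the filter by themselves. It entered the test through the TGFβ group, where it was highest, so its place among the 2 carries little weight. *Itgb4* had 58 counts over the TGFβ libraries and 19 over the combined ones. *Itgb2* and *Itga10* held at most 25 counts in a library and did not pass. *Itga7* held at most 10 counts, *Itga11* 5, *Itgae* 2, *Itgal* 5 and *Itgam* 1, below the filter. *Itgb7* held 9, 2 and 20 counts in controls, 6, 0 and 3 with NNMTi and 0 in all libraries with TGFβ. *Itga4*, *Itga8*, *Itgad* and *Itgax* were at 0 in every library, which allows up to 0.253 to 1.16 CPM per library for counting error only.

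Among genes of the proteins that switch integrins on and tie them to actin, more rose than fell with TGFβ. Of 15 tested activators and adaptors, 9 rose and 1 fell, with a median of 0.39 on the log2 scale beside 0.017 over all genes, of which 19.4% rose and 17.1% fell. *Tln2*, a talin that opens integrins from inside the cell, rose from 20.8 ± 1.64 to 58.6 ± 9.49 CPM (1.48 ± 0.13, edgeR adjusted p = 7.29e-08). *Lims1*, the PINCH partner of integrin-linked kinase, rose from 73.0 ± 4.18 to 141 ± 24.9 CPM. *Tns2*, a tensin, fell from 33.5 ± 1.36 to 16.2 ± 3.34 CPM. *Lims2* and *Parvb* rose from 6 and 20 counts over the controls to 41 and 57, calls lost without TGFβ replicates 2 and 3 together (adjusted p = 0.0781 and 0.336); *Parvb* was lost too without control replicate 3 (0.1) or TGFβ replicate 3 (0.0892). The control counts of *Lims2* and *Parvb* were too few to pass the filter by themselves, so these genes entered the test through other groups. Their place among the 9 that rose therefore carries little weight. Of 29 tested focal adhesion genes, 14 rose and 2 fell, with a median of 0.27. The actin crosslinker *Actn1* rose from 857 ± 10.2 to 2581 ± 141 CPM, and *Vcl*, for vinculin, from 125 ± 8.02 to 331 ± 78.6 CPM. *Pxn*, for the scaffold paxillin, fell from 231 ± 5.34 to 161 ± 40.3 CPM (edgeR adjusted p = 0.00967). *Vcl* overlaps *Ap3m1* on the other strand, which held 3371 counts.

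Of 18 tested inhibitors and traffickers of integrins, 4 rose and 6 fell with TGFβ, with a median of -0.19, beside 19.4% and 17.1% of all genes. The fall of *Tspan4*, a tetraspanin, was lost without TGFβ replicate 1 (adjusted p = 0.0726) and when only these groups were fitted (0.051). *Flna*, for a filamin that binds β tails in competition with talin, rose from 460.4 ± 15.5 to 739 ± 101 CPM. The tetraspanins *Cd9* and *Cd82*, membrane partners of integrins, fell from 149 ± 6.54 to 52.0 ± 15.5 CPM and from 38.7 ± 2.96 to 16.6 ± 4.94 CPM. *Slc3a2*, which binds β1 tails, fell from 613 ± 15.1 to 364 ± 75.5 CPM and was higher in the combined group than with TGFβ, at 533 ± 20.1 CPM (0.55 ± 0.12, edgeR adjusted p = 0.0061), a call lost when only these groups were fitted (0.091).

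Of 20 tested ligands of the collagen and laminin receptors, 6 rose and 5 fell with TGFβ, with a median of -0.08, again beside 19.4% and 17.1% of all genes. *Col1a1* rose from 4.54 ± 1.62 to 165 ± 19.3 CPM, and the laminin chain *Lamb3* from 1.04 ± 0.414 to 46.2 ± 19.8 CPM. The controls of *Lamb3* were too low to pass the filter by themselves, so it entered the test through other groups. Its place among the 6 that rose carries little weight. *Col4a5* and *Lama5*, of the basement membrane, fell from 142 ± 22.2 to 54.0 ± 2.38 CPM and from 171 ± 11.9 to 115 ± 19.1 CPM. *Col4a5* overlaps the pseudogene *Gm15268* on the same strand, which held 1044 counts. Of 13 tested RGD and other matrix ligands, 5 rose and 4 fell, with a median of -0.06. Fibronectin (*Fn1*) rose from 557 ± 12.96 to 1720.3 ± 332 CPM and periostin (*Postn*) from 71.7 ± 13.8 to 484 ± 22.2 CPM. Nephronectin (*Npnt*) fell from 104 ± 8.70 to 15.3 ± 3.82 CPM, and osteopontin (*Spp1*) from 664 ± 66.9 to 489 ± 4.67 CPM. The fall of *Egfl7*, of the same list, was lost without TGFβ replicates 2 and 3 together (adjusted p = 0.0572). Of 6 tested genes of TGFβ and of proteins that hold it latent, 4 rose and 1 fell. *Ltbp1* rose from 9.83 ± 1.09 to 112 ± 38.0 CPM, and *Tgfb2* rose from 196 ± 7.20 to 306 ± 62.1 CPM. *Lrrc32*, which tethers latent TGFβ to the cell surface, was at 0 counts in all controls and at 459 counts over the TGFβ libraries. The filter on low counts admitted it through groups other than the controls, so its place among the 4 carries little weight.

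**Figure D4:**
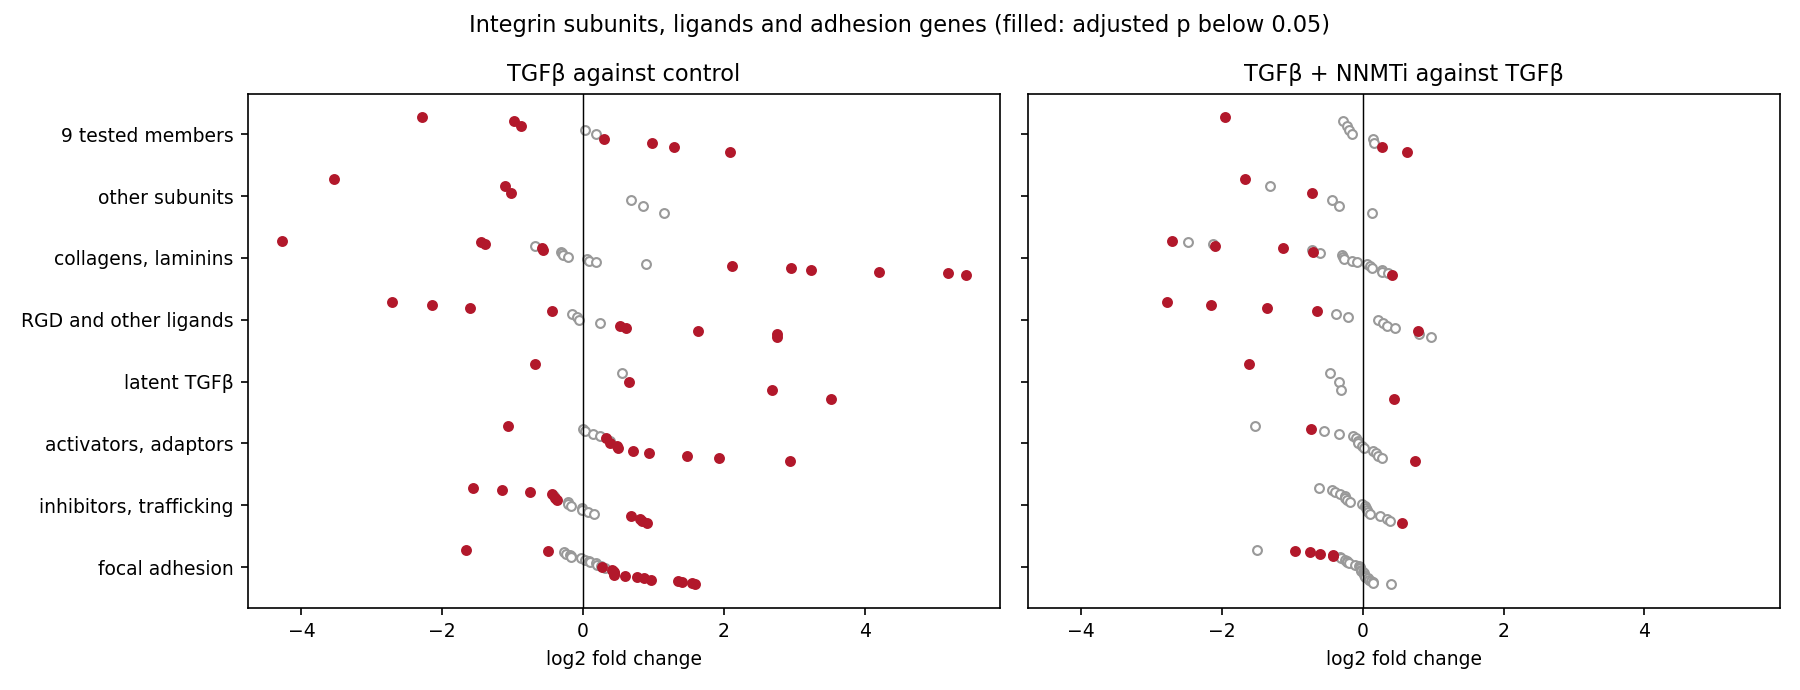
Log2 fold change (horizontal axis, shared scale) of the tested integrin subunits and of 6 lists of ligand and adhesion genes, with TGFβ against control on the left and the combined group against TGFβ on the right; each point is a gene and filled points passed an adjusted p below 0.05. *Lrrc32*, at 0 in all controls, is not drawn. On the left 9 of 15 activators and adaptors are filled to the right of 0. Among these 9 are *Lims2* and *Parvb*, which the filter admitted through groups other than the controls.

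The inhibitor lowered part of the ligands in both settings. The shares of all genes called were 5.8% lower and 2.47% higher with the inhibitor alone, and 6.97% lower and 3.45% higher when it was added to TGFβ. Alone, it lowered 6 of 13 tested RGD and other ligands, among them *Fn1* to 284 ± 7.78 CPM (-0.98 ± 0.11, edgeR adjusted p = 1.47e-05) and *Postn* to 2.75 ± 0.783 CPM (-4.70 ± 0.20, adjusted p = 1.02e-10). Added to TGFβ, it lowered 4 of these 13 and raised 1. *Fn1* then stood at 1102 ± 14.5 CPM, *Postn* at 70.6 ± 12.2 CPM and *Spp1* at 191 ± 16.8 CPM, each below TGFβ alone, and tenascin C (*Tnc*) rose from 1225 ± 201 to 2104 ± 208 CPM (0.78 ± 0.11, edgeR adjusted p = 0.000213). Of the 20 collagen and laminin genes, 4 were lower and 1 higher in the combined group than with TGFβ, with *Col1a1* at 38.4 ± 6.13 CPM (-2.10 ± 0.20, edgeR adjusted p = 6.52e-06) and perlecan (*Hspg2*) at 328 ± 2.48 against 246 ± 12.1 CPM. When only these groups were fitted, the calls of *Hspg2* (0.0736), *Col6a2* (0.0551) and *Lamb3* (0.0555) were lost. *Lamb3* was lost too without TGFβ replicates 2 and 3 together (0.303) and without combined replicate 1 (0.0577) or 3 (0.0534). Of the 6 latent TGFβ genes, 2 were lower and 1 higher, *Ltbp1* at 37.0 ± 4.01 CPM and *Lrrc32* at 74 counts being the lower ones. The call of the higher one was lost when only these groups were fitted (0.0855).

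Among the 29 focal adhesion genes, the inhibitor alone lowered 5 and raised 1, beside 5.8% and 2.47% of all genes. Of those lowered, *Actn1* stood at 499 ± 42.7 CPM (-0.78 ± 0.10, edgeR adjusted p = 5.01e-05). The 1 that rose, *Lpxn*, was lost without control replicate 1 (0.0777) or 3 (0.0527) or NNMTi replicate 2 (0.0879). Added to TGFβ, the inhibitor lowered 5 of the 29, where 6.97% of all genes were lower and 3.45% higher. Several of the 5 calls did not hold. Caveolin (*Cav1*) fell from 68.2 ± 9.72 to 35.2 ± 8.09 CPM and held in every alternative run. The kinase *Fyn*, *Dock1* and *Sorbs3* were lost without TGFβ replicates 2 and 3 together (adjusted p = 0.237, 0.451 and 0.072) and when only these groups were fitted (0.0955, 0.159 and 0.168). Leaving out 1 library lost *Fyn* without combined replicate 3 (0.124), *Dock1* without TGFβ replicate 2 or 3 or any combined replicate (0.05 to 0.148), and *Sorbs3* without TGFβ replicate 1 or 2 or combined replicate 2 or 3 (0.051 to 0.147). Of the 15 activators and adaptors, edgeR called 0 with the inhibitor alone, 2 had an unadjusted p below 0.05 and DESeq2 called 1, and added to TGFβ the tensin *Tns2* rose and *Tns1* fell. *Tns2* (0.75 ± 0.16, edgeR adjusted p = 0.00527) was lost without TGFβ replicates 2 and 3 together and when only these groups were fitted, with adjusted p up to 0.0702.

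The genes most like each member over the 12 libraries were sought among 9163 or 9164 genes with a mean of 10 CPM or more, by Pearson's r of log2 CPM. These r describe libraries that share 4 groups and carry no test. *Itga1* was most like *Gstm1* (r = 0.995) and *Atp1b1* (0.995), *Itga3* like *Shc1* (0.978) and *Trpv4* (0.973), and *Itga5* like *Map1b* (0.986) and *Eif3i* (0.969). *Itgb1* was most like *Rab22a* (0.997) and *Nuak1* (0.995), *Itgb3* like *Efemp2* (0.965) and *Snrpa1* (0.962), and *Itgb6* like *Dtna* (0.942) and *Chka* (0.941). *Itgb5* was most like the matrix genes *Agrn* (0.976), for agrin, and *Tnc* (0.959). The values were lowest for the members that did not pass any test, *Itga6* with *Dnase2a* (0.87) and *Nosip* (0.854) and *Itgav* with *Ormdl1* (0.907) and *Tmed2* (0.904).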

How the data were processed

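The 12 libraries were prepared from 100 ng of RNA with QuantSeq 3′ FWD, per the labels' protocols. Deposited values are raw counts of reads per gene in 1 table with a column per library, per the file headers and values. The submitters' processing notes name STAR, HTSeq and the human build GRCh38, although the identifiers are mouse ones, and versions and the strand setting are not given in the sources used here. Reads in no feature (21.1% to 26.8%) or in several genes (0.613% to 0.802%) were left out. Of 55487 genes, 55141 had a symbol and 23630 a count.

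Counts were fitted with edgeR 4.0.16 (R 4.3.3, limma 3.58.1), as 1 quasi-likelihood model of the 4 group means over all 12 libraries, after filterByExpr (minimum count 10, leaving 13581 genes) and TMM scaling (factors 0.953 to 1.05). SE is the log2 change over the square root of F, 95% intervals take the normal quantile of SE, and adjusted p follow Benjamini-Hochberg. The interaction is the effect of the inhibitor with TGFβ minus that without it. Replicates differed beyond sampling noise in every group (chi-square per degree of freedom 3.30 to 44.4). A count of 3 sets the floor, 0.253 to 1.16 CPM, for counting error only. Only the main edgeR model was run on simulated data.

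The members and gene lists were chosen with earlier results of these data known. Named are all members, every other integrin subunit with a count, up to 4 called genes per list, comparison and direction with the largest change, from which the text takes examples (some are not reported here), and the 2 genes most like each member (log2 CPM, prior count 3). Alternatives were library size and RLE scaling, DESeq2 1.42.0, no filter, a mean of 10 CPM, a replicate block, only the groups compared, and each library left out. Chosen after seeing the data, TGFβ replicates 2 and 3 were also left out together, which leaves TGFβ replicate 1 alone in its group. Overlaps of genes come from GENCODE M21 on GRCm38, and promoters from RefSeq.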

Additional observations from a re-analysis of the deposited data

Results flagged for a closer look

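The effect of the inhibitor differed between cells with and without TGFβ for *Itgb5*, by 0.64 ± 0.12 on the log2 scale (edgeR adjusted p = 0.0129). The same test of the difference picked out 8 genes of the ligand and adhesion lists, and 1.11% of all genes. They were 1 of 15 tested activators and adaptors, 2 of 29 focal adhesion genes and 2 of 20 collagen and laminin genes. The rest were 3 of 13 RGD and other ligands, with 0 of 18 inhibitors and traffickers and 0 of 6 latent TGFβ genes. *Tns1*, a tensin, differed by -0.89 ± 0.13 (adjusted p = 0.00112), and the crosslinker *Actn1* by 0.89 ± 0.14 (adjusted p = 0.00222). *Postn* differed by 1.93 ± 0.26 (adjusted p = 0.000633). These 3 calls held in all 19 alternatives. *Col1a1* differed by -1.76 ± 0.36 (adjusted p = 0.0291, lost in 6 of 19 alternatives, highest adjusted p 0.126), *Hspg2* by 0.57 ± 0.12 (0.0226, lost in 5 of 19, highest 0.09) and *L1cam*, an RGD ligand, by -1.33 ± 0.28 (0.0264, lost in 7 of 19, highest 0.121). *Lpxn*, for leupaxin, differed by -2.82 ± 0.65 (0.0409, lost in 13 of 18, highest 0.119) and *Thbs1*, for thrombospondin, by 1.07 ± 0.24 (0.0498, lost in 14 of 19, highest 0.163).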

How the results depend on the processing

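Of 762 member values under alternatives, 702 kept direction and side of the threshold, 25 lost a call, 13 gained one and 22, of 9 results with adjusted p of at least 0.584, changed sign; the lowest adjusted p of those 22 was 0.175, and except where named the cause was not tested. Log2 values that changed sign were *Itgav* with TGFβ (library size -0.069, DESeq2 -0.0076, replicate block -0.0060, leaving out 1 library -0.22 to 0.22, without TGFβ replicates 2 and 3 -0.00045), *Itga5* with NNMTi (library size -0.020, leaving out 1 library -0.24 to 0.30), *Itga6* with NNMTi (-0.0022 to 0.23) and in the combined group against control (-0.11 to 0.12), *Itgb5* with NNMTi (-0.029 to 0.019), and, combined against TGFβ, *Itga5* (-0.46 to 0.33) and *Itgav* (-0.034 to 0.40), each on leaving out 1 library. Without TGFβ replicates 2 and 3, *Itga5* (0.45) and *Itgb3* (0.29) changed sign there, as did *Itga5* in the interaction (0.42, and -0.49 to 0.30 leaving out 1 library). The interaction called 2 members by DESeq2, 2 with no filter and 3 without TGFβ replicates 2 and 3, and 260, 306 and 350 genes against 151. With only the groups compared, 2 members and 2931 genes passed for NNMTi (1123 in the shared fit), and 1 member and 408 genes for combined against TGFβ (1416). Leaving out 1 library gave 0 to 1 members and 591 to 684 genes for NNMTi, 0 to 5 members and 65 to 399 genes for the interaction, 2 to 4 members and 762 to 1938 genes for combined against TGFβ, and 5 to 7 members for TGFβ. Beside those edgeR counts of 0, the full fit had 3 members with an unadjusted p below 0.05 for NNMTi and 3 for the interaction, and DESeq2 called 1 and 2. The mean CPM filter removes *Itgb3* and *Itgb6*.

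Over all tested genes, replicate numbers showed no clear pairing of the libraries (r of same-numbered deviations -0.085 to 0.20, and 14 of 36 best with their own number). These r could not exclude a shared effect on single genes. *Ccn2* was lowest in replicate 2 with TGFβ (946 CPM) and with both agents (3132 CPM), and in replicate 3 of the control and NNMTi groups. With the replicate block, 7, 1, 2, 7, 7 and 1 members and 4875, 1033, 1306, 4887, 4276 and 119 genes passed for TGFβ, NNMTi, combined against TGFβ, NNMTi and control, and the interaction; *Itgb1* left the third (adjusted p = 0.0563). Of 176 list calls, 38 were lost under some alternative, and 0 of 2357 values changed sign. TGFβ replicate 3 has the least depth, and *Itga2*, *Itgb3* and *Itgb6* rest on few counts.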
